A study of Mus musculus with 295 samples.

Results

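The interleukins, the tumour necrosis factor (TNF) family and their receptors were followed in adipose tissue of 295 F2 mice. The set holds every gene whose symbol in the array's probe annotation begins with Il and a digit or with Tnf, apart from Il7r, if its probe was measured on at least 90% of the arrays. All 103 such probes passed, for 98 genes of the 11454 named genes on the array, of which 69 bear interleukin names and 29 Tnf names. The rule used symbols only and no measured value. By role there were 39 ligands, 46 receptors or receptor subunits, 8 antagonists, decoys or binding proteins, and 5 induced genes. The ligands were counted with Il1f5, although it is a receptor antagonist of the interleukin 1 family. The induced genes are 4 Tnfaip genes and Il4i1, an amino acid oxidase induced by interleukin 4.

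The mice came from a cross of C57BL/6J with C3H/HeJ in which every animal lacks ApoE, the apolipoprotein that clears remnant lipoproteins from blood. Between 8 and 24 weeks of age they were fed a Western diet high in fat, and both sexes were used, although the labels do not give the sex of single mice. RNA of each mouse, labelled with Cy3, was set on 1 array against a Cy5 pool of all RNAs, and each value is thus a log2 ratio of that mouse to the average animal. There is 1 labelled group and no control, and the results are therefore how widely each gene varied and with what it varied. With no repeat arrays, technical error is part of every spread given here. A ratio gives no absolute level: whether a gene or a tissue marker is strongly or weakly expressed in fat cannot be read from these values, and a change in the number of cells of a type cannot be told apart from a change in RNA per cell.

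Interleukins and TNF ligands are secreted or membrane-bound signals by which leukocytes, and in fat also stromal cells and adipocytes, direct inflammation. Most interleukin receptors are assembled from a ligand-specific chain and a shared chain, such as Il6st (gp130) for interleukin 6 or Il2rb for interleukins 2 and 15, and act through JAK kinases and STAT factors or, for the interleukin 1 and 17 families, through adaptors that lead to NF-kB. TNF receptors recruit TRAF adaptors and also lead to NF-kB, and Tnfaip3 (A20) is an NF-kB target that shuts this path down again. In obese adipose tissue macrophages are the best known source of TNF.

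Promoters are shown for 4 genes that the results turn on: Tnf and its induced genes Tnfaip2 and Tnfaip3, which varied together across the mice, and Il6, whose relation to leptin differed between sets of mice with the smallest p. Each window runs 5′ to 3′ from 250 bases before to 50 bases after a start site in build GRCm38.p6. For Tnf, Tnfaip3 and Il6 this site is the RefSeq gene start. For Tnfaip2 it is another site: the RefSeq gene start, chr12:111442450, lies near the 5′ end of the window. Few of the bases before that start are therefore shown. Capitals mark matches on either strand to an NF-kB motif, which is GGG, any 2 bases and TTTCC, or an AP-1 motif, TGANTCA, and the matches of these motifs do not overlap in the windows shown. The Tnf window is chr17:35201958-35202257 on the minus strand, the Tnfaip2 window chr12:111442411-111442710 on the plus strand, the Tnfaip3 window chr10:19015361-19015660 on the minus strand and the Il6 window chr5:30012864-30013163 on the plus strand. Tnfaip3 has 2 windows in the table and the first is shown.
Tnf: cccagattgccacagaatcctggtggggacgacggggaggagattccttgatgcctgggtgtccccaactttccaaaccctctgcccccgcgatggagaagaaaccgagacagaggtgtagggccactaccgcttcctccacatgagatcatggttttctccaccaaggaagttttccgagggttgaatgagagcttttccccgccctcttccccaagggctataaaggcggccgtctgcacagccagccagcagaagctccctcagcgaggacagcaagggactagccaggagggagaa
Tnfaip2: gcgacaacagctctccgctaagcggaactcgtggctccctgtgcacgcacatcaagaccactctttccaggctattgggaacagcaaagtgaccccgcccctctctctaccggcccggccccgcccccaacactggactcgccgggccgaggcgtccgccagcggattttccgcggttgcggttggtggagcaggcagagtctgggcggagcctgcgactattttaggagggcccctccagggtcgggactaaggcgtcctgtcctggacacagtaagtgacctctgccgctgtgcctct
Tnfaip3: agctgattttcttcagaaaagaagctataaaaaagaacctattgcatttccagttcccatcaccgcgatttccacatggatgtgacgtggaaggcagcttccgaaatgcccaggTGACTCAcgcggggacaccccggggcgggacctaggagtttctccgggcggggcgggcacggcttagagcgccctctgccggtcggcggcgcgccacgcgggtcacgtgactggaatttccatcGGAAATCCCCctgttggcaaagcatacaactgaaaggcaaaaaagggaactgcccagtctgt
Il6: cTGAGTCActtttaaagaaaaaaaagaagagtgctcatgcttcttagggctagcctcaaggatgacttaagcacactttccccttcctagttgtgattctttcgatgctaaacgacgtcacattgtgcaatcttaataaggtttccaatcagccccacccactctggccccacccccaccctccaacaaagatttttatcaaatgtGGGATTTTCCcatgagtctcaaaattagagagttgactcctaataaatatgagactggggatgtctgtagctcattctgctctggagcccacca
The Tnfaip3 window held 1 match to each motif, starting at -12 for NF-kB and -136 for AP-1 relative to the gene start. The Il6 window also held 1 of each, at -44 and -249. Neither motif was found in the Tnf or the Tnfaip2 window, which says only that these letters are not in those 300 bases. Of all 32851 windows, 1.63% held the NF-kB motif and 7.81% the AP-1 motif. The table held 91 windows for 75 of the 98 genes. Among them 11.0% held the NF-kB motif, in Il16, Il17rc, Il1rn, Il23r, Il4ra, Il6, Il9, Tnfaip3 and Tnfrsf25, and 19.8% the AP-1 motif. A match describes the sequence and is not evidence of binding.

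As a set, the 98 genes varied somewhat more from mouse to mouse than an average probe. For 53 of the 98 genes (54.1%) the middle 90% of mice covered a range of 2-fold or more, against 39.2% of all 22894 probes. The median SD was 0.34 on the log2 scale, against 0.29 over all probes. Fold sizes rest on reading the deposited values as log10 ratios. Read as natural logarithms the count is 6 (6.12%), against 5.55% of all probes, and read as log2 it is 1 (1.02%), against 2.27%. The greater share of the 98 genes at 2-fold thus depends on that reading. Before the single genes, 3 sets of mice have to be named, because their values lay apart. Eif2s3y, a Y-linked gene, was at or below -4.16 in 142 mice and at or above -0.10 in all others, and 48 of those others had transcripts of epididymis, the sperm duct that lies against the gonadal fat pad, with a marker score of at least 1.71 against at most 0.56 in all other mice. The names used below are Eif2s3y-low (142 mice), Eif2s3y-high (105 mice without epididymis transcripts) and epididymis (48 mice). They were defined from the data, not from the labels, and are compared as descriptions.

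The gene with the largest spread was Tnfrsf19 (Troy), a TNF receptor without a TNF ligand of its own, known from epithelia and stem cells. Its log2 ratio ran from -2.81 through a median of -0.56 to 3.06, with an SD of 1.22 ± 0.05 (SE, n = 295), and its central 90% of mice spanned 12.4-fold. The Eif2s3y-high mice were low, from -2.81 through -1.87 to 2.66, the Eif2s3y-low mice ran from -1.96 through -0.23 to 3.06, and those with epididymis transcripts from -0.12 through 0.58 to 2.33. The ranges of the 3 sets overlapped, while the median of the Eif2s3y-high mice lay below every mouse with epididymis transcripts. Within every set Tnfrsf19 followed the score of 8 epithelial and mesothelial markers, with r = 0.83, 0.80 and 0.66 in the same order of low, high and epididymis. Its closest genes over all mice were Krt19, a keratin, at r = 0.86 and Egfl6 at r = 0.86.

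Another pair of receptor chains were high in the mice with epididymis transcripts. Il17rb, the receptor chain for interleukins 17B and 25, had medians of -0.49 in the Eif2s3y-low, -0.50 in the Eif2s3y-high and 1.33 in the epididymis mice, and ran from -0.07 to 2.03 in the last set. Il20rb, the shared chain of the receptors for interleukins 19, 20 and 24, had medians of -0.81, -0.22 and 1.27, and its lowest value with epididymis transcripts was 0.39 against a highest value of 0.81 and 0.68 in the other sets. Over all mice Il20rb had an r of 0.78 with the epididymis score, and without those 48 arrays -0.02. Il17rb had 0.71 and 0.03. The SD of Il20rb was 0.83 with and 0.53 without the 48 arrays, and that of Il17rb 0.88 and 0.64, still above the median SD of the 98 genes.

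The other genes among the 12 most variable were of several kinds. Il4i1 ran from -1.77 through -0.64 to 3.15, and Tnfsf11 (RANKL), the ligand that drives osteoclast formation, from -1.84 through -0.28 to 3.64, both with a long upper tail. Tnfaip2 ran from -1.75 through -0.33 to 1.95, and Il3ra, the interleukin 3 receptor chain, from -1.63 through -0.37 to 1.70. Tnfrsf12a (Fn14), the receptor for TWEAK, ran from -1.14 through 0.39 to 2.29, and Il13ra2, the decoy receptor for interleukin 13, from -2.43 through 0.14 to 1.47. The other 3 of the 12 genes had single arrays far from the rest, for Il22ra2 and Il13 at or near the limit of the deposited values. Il22ra2, the soluble binding protein of interleukin 22, ran from -6.10 to 6.64 around a median of 0.09, Il13 had a lowest value of -6.64 and a median of 0.12, and the highest Il31 value, 4.70, lay in mouse 12.

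**Figure D1:**
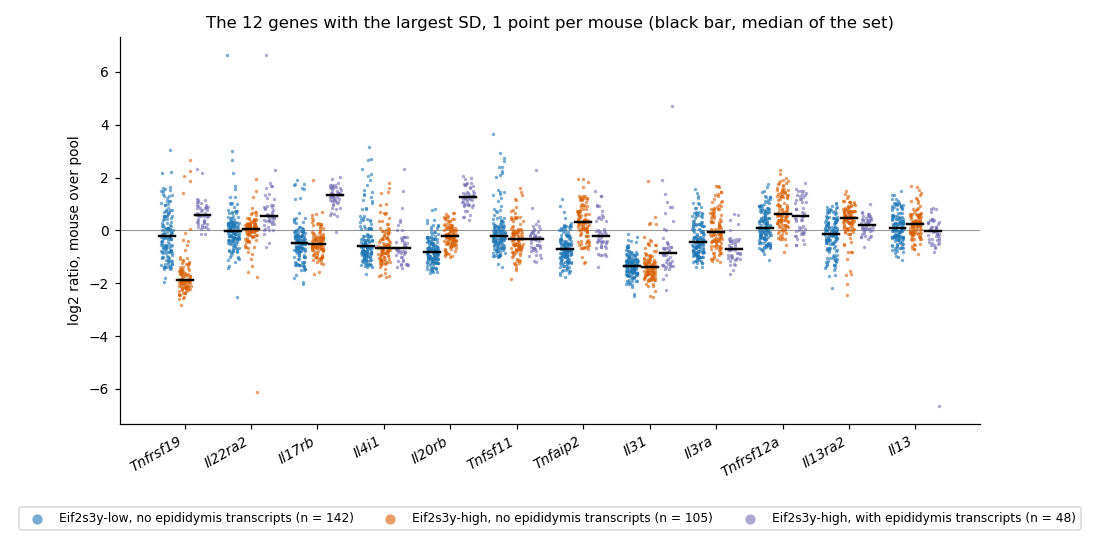
Log2 ratios, mouse over pool, of the 12 genes with the largest SD, 1 point per mouse and 3 sets of mice, with a black bar at each set's median. Il17rb and Il20rb stand high in the 48 mice with epididymis transcripts, with medians of 1.33 and 1.27, and Tnfrsf19 is low in the 105 Eif2s3y-high mice, with a median of -1.87.

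Next, each probe on the array was regressed on a score of 19 macrophage markers, the mean of their z-scores over mice, to ask which of the 98 genes rise and fall with macrophage transcripts. No marker is one of the 98 genes. A gene is called if its Benjamini-Hochberg adjusted p over all probes is under 0.05 and its absolute Pearson r at least 0.4. Of the 98 genes, 17 were called higher with the macrophage score and 3 lower, that is 17.3% and 3.06%, where 8.77% and 6.31% of all probes were called. By the adjusted p alone, 40 were higher and 13 lower, where 26.4% and 29.0% of all probes were. The median r over the 98 genes was 0.07, against -0.02 over all probes. The 17 comprised 7 of 39 ligands, 5 of 46 receptor chains, 4 of 5 induced genes and the decoy receptor Il13ra2.

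The interleukin 10 receptor stood at the head. Il10ra, its ligand-binding chain, ran from -1.78 through -0.09 to 1.39 and had an r of 0.89 with the macrophage score (adjusted p = 1.6e-101). Il10rb, the chain it shares with other cytokines, ran from -1.22 through -0.11 to 0.97, with r = 0.84. Within the Eif2s3y-low, Eif2s3y-high and epididymis mice Il10ra kept r values of 0.86, 0.87 and 0.89, and Il10rb 0.78, 0.83 and 0.82. Both chains were therefore tied to macrophage transcripts in each set on its own. The genes most like Il10ra over the 295 mice were Vav1, a signalling protein of blood cells, at r = 0.93, and Was and Hcls1, both also at 0.93. The ligand Il10, an anti-inflammatory cytokine, had an r of 0.53.

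TNF and the genes named for their induction by it came next. Tnf ran from -1.51 through -0.08 to 1.78, with an r of 0.80 with the macrophage score. Its median was 0.41 in the Eif2s3y-high mice, -0.34 in the Eif2s3y-low mice and -0.17 in those with epididymis transcripts, with wide overlap of the ranges. Tnfaip2 had an r of 0.82, Tnfaip8, a regulator of cell death, 0.66, Tnfaip3 0.62 and Tnfaip6 (TSG-6), a hyaluronan-binding protein, 0.45. All 4 measured Tnfaip genes were thus called. The TNF receptors were not: Tnfrsf1a, the widely expressed receptor, had an r of 0.33 (adjusted p = 2.5e-08, below the size asked for), and Tnfrsf1b, the receptor of leukocytes and endothelium, -0.11 (adjusted p = 0.083). The Tnfrsf1b probe had an r of 0.68 with the score of olfactory receptor probes described below and an r of at least 0.8 with 1449 probes, so whether its values follow the receptor was not tested.

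Among the other ligands, Il12b, the chain that interleukins 12 and 23 share, had an r of 0.55, Il6 and Il15 both 0.53, Tnfsf13b (BAFF), a survival factor of B cells, 0.44, and Il1b 0.43. Il18, processed like Il1b by the inflammasome, had 0.29, and Il1rn, the interleukin 1 receptor antagonist, -0.01. The Il1rn probe had an r of 0.98 with those of Il1rapl2 and Vps39, so whether its values follow the antagonist was not tested. The receptor chains Il13ra2, Il1r1, Il13ra1 and Il27ra had r values of 0.53, 0.47, 0.49 and 0.47. Of the 17 genes, 14 passed the adjusted p with the same sign in each of the 3 sets, and the exceptions were Il13ra1, Il13ra2 and Tnfaip6. For Il13ra2 the direction turned, with r = 0.58 in the Eif2s3y-low mice, 0.43 in the Eif2s3y-high mice and -0.25 in the 48 with epididymis transcripts.

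The 3 genes that were lower where the macrophage score was higher are receptors. Tnfrsf19 had an r of -0.56 over all mice, but -0.22 and -0.16 in the Eif2s3y-high and epididymis mice, and was largest in the Eif2s3y-low mice (-0.58). Il17rc, a chain of the interleukin 17A receptor, had -0.49, with -0.56, -0.63 and -0.19 in the 3 sets. Il17re, the receptor for interleukin 17C, had -0.43. The markers that rose with them differed: Il17rc had an r of 0.77 with the score of 9 adipocyte markers and 0.71 with that of endothelium, Il17re 0.50 with the epithelial and mesothelial score. The adipocyte and macrophage scores themselves had an r of -0.51, and the part of the adipocyte content in these values was not tested beyond the joint fit below.

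Lymphocyte scores drew a list that overlapped in part with that of the macrophage score. With a score of 14 T cell markers, 26 of the 98 genes (26.5%) were called higher and 0 lower, where 3.08% and 0.367% of all probes were called. By limma's adjusted p alone 47 were higher and 11 lower (26.0% and 20.7% of all probes), and at an unadjusted p under 0.05 15 were lower. With 9 B cell markers 21 genes (21.4%) were called higher and 0 lower, against 2.90% and 0.406% of all probes, and by the adjusted p alone 52 and 18 (27.6% and 26.3%), with 21 lower at an unadjusted p under 0.05. All 21 were among the 26. The T and B cell scores had an r of 0.91 with each other, so these counts are not separate, while the T cell and macrophage scores had an r of 0.23. Both the macrophage and the T cell score called 7 genes higher: Il10, Il10ra, Il12b, Il1b, Il27ra, Tnf and Tnfsf13b. The same overlap over all probes was not counted. The other 19 of the 26 included costimulatory TNF receptors, T cell cytokine receptors and lymphocyte ligands.

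Tnfrsf18 (GITR), a costimulatory receptor of regulatory and activated T cells, ran from -1.45 through -0.16 to 2.52 and had an r of 0.85 with the T cell score, and 0.88, 0.86 and 0.85 in the 3 sets. Its closest genes were Sh2d2a, a T cell adaptor, at r = 0.91, and Cd3g, a chain of the T cell receptor complex, at 0.90. Il2rb, the signalling chain of the receptors for interleukins 2 and 15, ran from -2.18 through -0.23 to 2.66, with r = 0.82. Tnfrsf4 (OX40), another costimulatory receptor, ran from -0.50 through -0.05 to 1.98, with r = 0.82, and 0.84 with the B cell score. Il12rb1, a chain of the interleukin 12 and 23 receptors, had 0.79 with the T cell score. These genes had medians near 0 and a long upper tail, and the tail weighed in r: Spearman's rho was 0.76 for Tnfrsf18, 0.74 for Il2rb, 0.70 for Tnfrsf4 and 0.67 for Il12rb1.

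Among the ligands, Il12a, the other chain of interleukin 12, ran from -1.48 through -0.16 to 3.53. With the T cell score it had r = 0.80 and rho = 0.59, and with the B cell score r = 0.82 and rho = 0.58. With the T cell score Il16, a chemoattractant of CD4+ cells, had r = 0.78 and rho = 0.60, and Il21, a cytokine of follicular helper T cells, had r = 0.73. Il4i1 followed the B cell score more closely than any other of the 98 genes, with r = 0.87, and 0.91, 0.91 and 0.59 in the 3 sets. The genes most like Il4i1 were Ccr6 at r = 0.90 and Cxcr5 at 0.89, both chemokine receptors of B cells. Il27ra, the interleukin 27 receptor, had r = 0.77 with the T cell score. Of the 26 genes, 26, 25 and 22 passed the adjusted p in the Eif2s3y-low, Eif2s3y-high and epididymis mice, and 22 in all 3. Here too the sets are parts of the mice on which the genes were called.

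A single animal weighs on these tails. Mouse 195, an Eif2s3y-low mouse, had the highest value of 23 of the 98 genes, among them Il12a, Il4i1, Tnfsf11, Il2rb, Tnfrsf18 and Tnfrsf4. No other mouse was highest for more than 12. Without it 23 genes were called higher with the T cell score and 18 with the B cell score, where 2.52% and 2.46% of all probes were. Leaving out the 2 mice farthest from the score's median moved the r of the named genes by at most 0.04 for the T cell and 0.06 for the B cell score. At the other end mouse 12, with epididymis transcripts, was lowest for 24 of the genes, and without it 25 were called higher with the T cell score (3.13% of all probes).

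**Figure D2:**
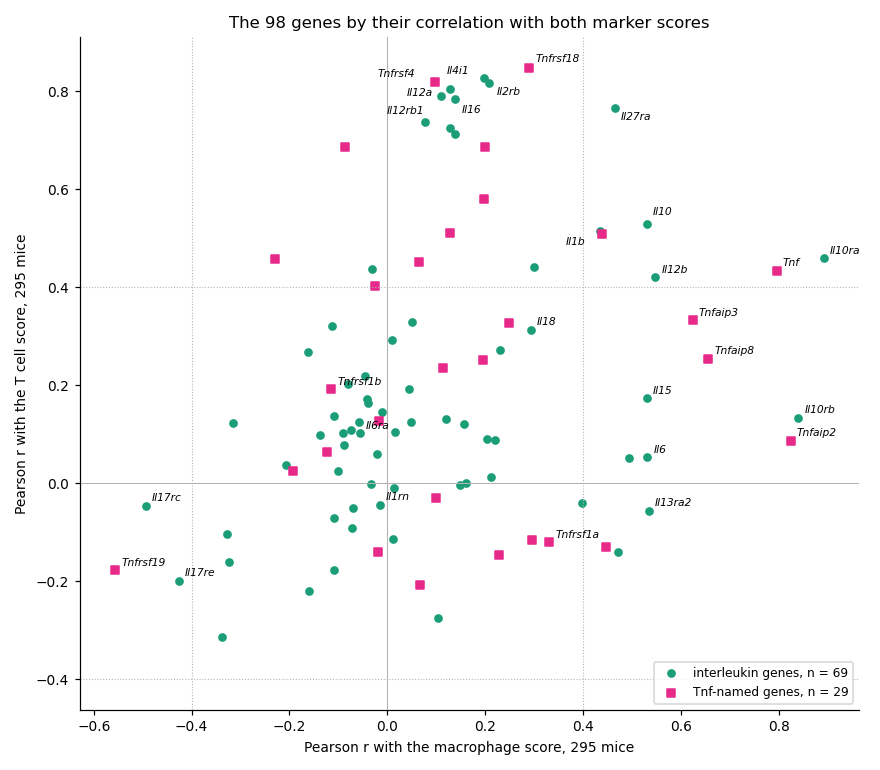
Pearson r of the 98 genes with the macrophage score (x axis) and the T cell score (y axis) over 295 mice, with dotted lines at ±0.4. Il10ra, Il10rb, Tnfaip2 and Tnf lie to the right at 0.89 to 0.80, Tnfrsf18, Il4i1, Il2rb and Tnfrsf4 at the top at 0.85 to 0.82, and no gene reaches the lower dotted line.

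When the macrophage, T cell, B cell and adipocyte scores were fitted together, each gene's relation to a score is given the other 3. A gene is called here at an adjusted p under 0.05 and an absolute partial r of at least 0.3. With the macrophage score 24 of the 98 genes were higher and 6 lower, where 15.1% and 11.8% of all probes were. Il10ra, Il10rb, Tnfaip2 and Tnf were among the 6 largest, Tnf with a partial r of 0.72, and Il15, with its r of 0.53 alone, had a partial r of 0.60. In the Eif2s3y-high mice alone 10 were higher and 3 lower (10.2% and 7.05% of all probes), and with the set as a block 14 and 4 (9.22% and 7.95%). With the T cell score 16 were higher and 0 lower (1.54% and 0.218% of all probes), with Il2rb, Tnfrsf18, Il12rb1, Il16, Il18r1 and Il18bp in front. By limma's adjusted p alone 49 genes passed in either direction, and at an unadjusted p under 0.05 14 were lower. In the Eif2s3y-low mice alone 23 were higher and 11 lower (11.1% and 10.8% of all probes), and in the Eif2s3y-high mice 5 and 0 (1.18% and 0.284%). With the B cell score 6 were higher and 1 lower (1.95% and 1.58%), Il4i1, Tnfrsf4 and Il12a among the first and Il15 as the gene that was lower, with a partial r of -0.32. In the Eif2s3y-low mice alone 20 and 13 were called (16.7% and 13.5% of all probes), in the Eif2s3y-high mice 7 and 5 (3.10% and 3.56%), and with the set as a block 3 and 0 (1.26% and 0.891%).

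With the adipocyte score 23 genes were higher and 11 lower in the joint fit, where 22.9% and 13.9% of all probes were. The shares of the 98 genes, 23.5% and 11.2%, lay near those of all probes. The largest partial r values were -0.68 for Il20rb, 0.67 for Il17rc, 0.66 for Il1r2, -0.66 for Il17rb, -0.57 for Il23a and 0.57 for Il16. They are values over all mice, and each of these genes had its most distant median in the epididymis mice. Those medians were 1.27, -0.41, -0.39, 1.33, 0.46 and -0.59 in the same order. Without the 48 epididymis arrays the r with the adipocyte score alone was 0.70 for Il17rc and 0.33 for Il1r2. The count moved with the sets of mice: with the set as a block 3 genes were called higher and 3 lower (8.91% and 7.40% of all probes), and without the 48 epididymis arrays 3 and 9 (8.73% and 7.54%). With array medians removed it was 10 higher and 12 lower (12.4% and 17.7%).

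Ligands and receptors were then compared with each other over the 295 mice, by a two-sided permutation test of Pearson's r with 100000 resamples in which 1e-05 is the smallest p possible. Of 54 listed pairs, 34 passed at an adjusted p under 0.05 (63.0%), 26 with a positive and 8 with a negative r. With 295 mice an absolute r of 0.14 was enough to pass, and 56.4% of all 4753 pairs of the 98 genes reached the smallest r that passed. In the Eif2s3y-high mice alone 21 passed. The closest pair was Tnf with Tnfaip2, at r = 0.84 and rho = 0.83 (both adjusted p at the smallest value the test can give, 2.6e-05 and 2.3e-05). In the Eif2s3y-low, Eif2s3y-high and epididymis mice r was 0.66, 0.86 and 0.84. The chains Il10ra and Il10rb had r = 0.80, with 0.72, 0.74 and 0.86, and Tnf with Tnfaip3 r = 0.65, with 0.53, 0.62 and 0.70. These genes all followed the macrophage score, as given above.

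The list also pairs receptor chains with each other and ligands with their receptors. Il1r1 and Il1rap, the 2 chains of the interleukin 1 receptor, had r = 0.62 and rho = 0.63. Tnfsf13b and Tnfrsf17 (BCMA), its receptor on plasma cells, had r = 0.60. Il10 and Il10ra had r = 0.58, Tnfsf14 (LIGHT) and its receptor Tnfrsf14 (HVEM) r = 0.53, and Tnfsf10 (TRAIL) and its death receptor Tnfrsf10b r = 0.53, each with a positive r in all 3 sets. Without the 2 mice farthest from the median these r values ran from 0.50 to 0.63. Not all pairs ran together: Il2 with Il2ra, the chain that gives the receptor its high affinity, had r = -0.50, and -0.67, -0.37 and -0.23 in the sets. The Il2 probe had an r of 0.78 with probes of olfactory receptor genes, described below.

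**Figure D3:**
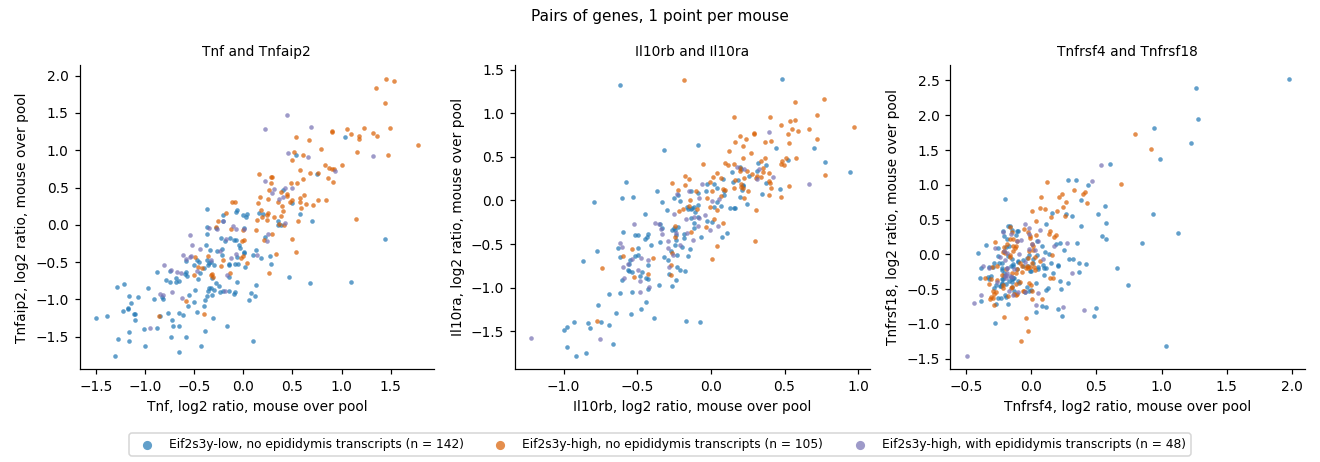
Log2 ratios, mouse over pool, of 3 pairs of genes, 1 point per mouse in the colour of its set. Tnf with Tnfaip2 (r = 0.84) and Il10rb with Il10ra (r = 0.80) form a single band over the sets, while Tnfrsf4 with Tnfrsf18 (r = 0.59) shows a dense cloud near 0 and a tail of high mice.

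Many of these genes sit side by side in the genome. Of 34 pairs with at most 3 genes between them in RefSeq gene order, 25 passed the same test (73.5%), 18 with a positive r. Of all 4753 pairs of the 98 genes, neighbours or not, 61.5% reached the smallest absolute r that passed here, 0.12. The count was 13 in the Eif2s3y-high mice, and 14 in both the middle and the upper of 3 parts by mouse number. Tnfrsf4 and Tnfrsf18, adjacent on chromosome 4, had r = 0.59 and rho = 0.41. Il4 and Il5, T helper cytokines on chromosome 11, had r = 0.56, and Il17a and Il17f, adjacent on chromosome 1, r = 0.41. Il1rl2 and Il18rap on chromosome 1 had r = 0.65, with 0.73, 0.26 and 0.68 in the sets. Il24 and Il20, also on chromosome 1, had r = 0.38. Of the 8 closest neighbour pairs, 3 ran in opposite directions: Il1r1 with Il18rap at r = -0.45, Il1f10 with Il1rn at -0.37 and Il1r1 with Il1rl2 at -0.34. As residuals from the olfactory receptor score, 16 pairs passed. Then Il1rl2 with Il18rap had 0.34, Il4 with Il5 0.31, Il17a with Il17f 0.14 and Il24 with Il20 0.12, while Tnfrsf4 with Tnfrsf18 had 0.70.

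Leptin is made by adipocytes and its mRNA rises with fat cell size, so Lep was used as a measure of the fat depot itself. The r of Lep with the adipocyte score was 0.43 over all mice. It was 0.08 in the Eif2s3y-low, 0.52 in the Eif2s3y-high and 0.78 in the epididymis mice. Whether Lep measures the same thing in each set was not tested. Of the 98 genes 8 were called higher with Lep and 6 lower (8.16% and 6.12%), where 7.34% and 3.83% of all probes were called, shares near those of the array as a whole. By the adjusted p alone 37 and 28 passed, against 38.7% and 28.3% of all probes, and with array medians removed 4 and 5 were called (3.81% and 4.58% of all probes). Il6st (gp130), the shared chain of the interleukin 6 receptors, led the first group. It ran from -0.54 through 0.09 to 1.04 and had an r of 0.54 with Lep (adjusted p = 9.1e-22), and 0.51, 0.44 and 0.60 in the sets. Its partner Il6ra, the ligand-binding chain, had 0.45, while the ligand Il6 had -0.00. Tnfrsf23, a decoy receptor for TRAIL, had 0.46, Il5 0.45, Il22ra1 0.43, Il2 0.43, Tnfrsf11a (RANK) 0.42 and Il1r2, the decoy receptor for interleukin 1, 0.41. Of the 8 genes, 8, 6 and 5 passed the adjusted p in the Eif2s3y-low, Eif2s3y-high and epididymis mice. The 4 that passed in all 3 sets were Il1r2, Il5, Il6st and Tnfrsf23. In the Eif2s3y-high mice Il2 had an r of 0.20 and Tnfrsf11a 0.09.

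Of these 8 genes 7 belong to a large block of probes that also holds genes with no known role in fat. The score of olfactory receptor probes, 1 for each of 263 genes, had an r of 0.42 with Lep. Among the 98 genes 18 (18.4%) had an r of at least 0.6 with that score, against 13.9% of all probes. Il6st had 0.73 with it, Il6ra 0.77, Tnfrsf23 0.75, Il2 0.78 and Tnfrsf11a 0.85, and Il1r2, the other gene, 0.39. With the olfactory receptor score as a covariate, chosen after the data were seen, Il6st had a partial r of 0.38 with Lep, Il6ra 0.22 and Tnfrsf11a 0.12, and of the 98 genes only Il13ra2 was called higher and only Il1rn and Il1rapl2 lower (2.80% and 1.42% of all probes). What this block measures was not tested.

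Il1rn, the natural antagonist of interleukin 1, was the lowest with Lep. It ran from -1.25 through 0.04 to 1.28, with r = -0.55 (adjusted p = 2.8e-23) over all mice and -0.59, -0.47 and -0.46 in the sets. With the olfactory receptor score as a covariate its partial r was -0.48. Il1rapl2, an interleukin 1 receptor relative of the nervous system on another chromosome, had -0.54. The 2 probes were almost the same measurement: their r was 0.98 over all mice and 0.99, 0.96 and 0.99 in the sets. The Il1rn probe was as close to those of unrelated genes, Vps39 at r = 0.98, Pes1 at 0.97 and Acaca at 0.97, and the second Il1rapl2 probe had an r of -0.34 with the first. Its values are therefore given as those of 1 probe. Il17rb, Il25, Il23a and Tnfsf8 (CD30L) followed at -0.47, -0.41, -0.41 and -0.41. In the Eif2s3y-low, Eif2s3y-high and epididymis mice Il17rb had -0.49, -0.07 and -0.41, and Il25 -0.53, -0.31 and -0.11. In the same order Il23a had -0.33, -0.22 and -0.29, and Tnfsf8 -0.56, -0.41 and -0.40.

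**Figure D4:**
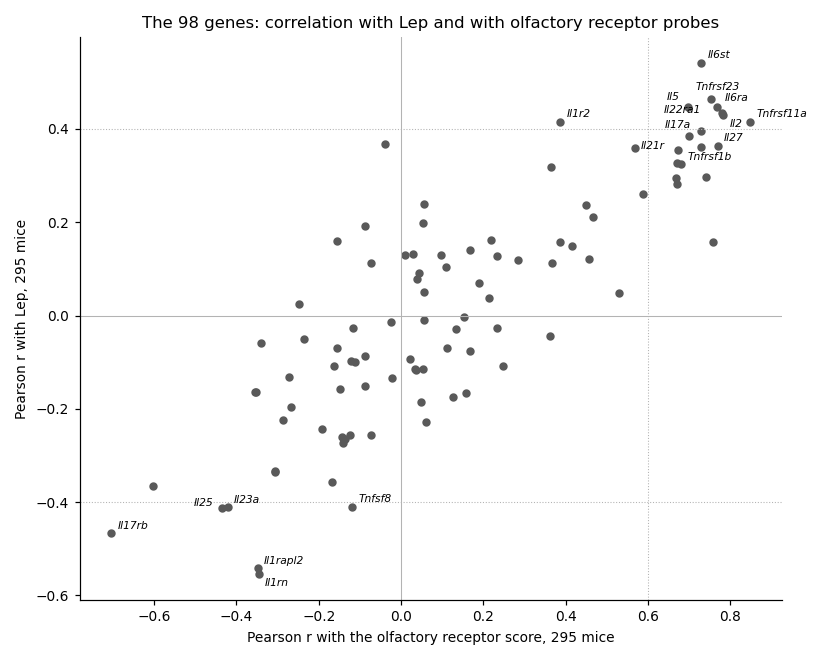
Pearson r of the 98 genes with the olfactory receptor score (x axis) and with Lep (y axis) over 295 mice, with dotted lines at 0.6 and at ±0.4. Of the 8 genes called higher with Lep, 7 lie right of 0.6, and Il1rn and Il1rapl2 lie lowest at -0.55 and -0.54.

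For several inflammatory genes the relation to Lep differed between the sets of mice. That of the adipocyte score to Lep differed too, as given above. The slope on Lep (log2 per log2) and its SE are given from a limma fit of each set on its own. The slope in the 142 Eif2s3y-low mice was compared with that in the 105 Eif2s3y-high mice in 1 limma fit of all mice. Of the 98 genes 26 differed at an adjusted p under 0.05, 15 with the greater slope in the Eif2s3y-low mice and 11 with the smaller, 15.3% and 11.2%, where 10.4% and 12.8% of all probes did. With array medians removed they numbered 23 and 10 (14.7% and 12.2%), and with the olfactory receptor score as a covariate 11 and 6 (8.44% and 10.5%). For 12 of the 26 the slopes had opposite signs, and for 5 of these, Il10ra, Il17rc, Il6, Tnfaip3 and Tnfaip8, both slopes passed the adjusted p in their own set. How many of all probes had slopes of opposite sign was not counted.

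Il6 had the smallest p, while Tnfaip2 had the largest difference in slope. The Il6 slope was 0.21 ± 0.05 (SE) in the Eif2s3y-low mice and -0.42 ± 0.09 in the Eif2s3y-high mice, a difference of 0.63 ± 0.09 (adjusted p = 1.1e-07). Its r with Lep was 0.33 and -0.43 in these sets and -0.00 over all mice. Tnfaip2 had slopes of 0.17 ± 0.10 and -0.74 ± 0.13, a difference of 0.92 ± 0.16, and its slope in the Eif2s3y-low mice did not pass (adjusted p = 0.13). Tnf had 0.04 ± 0.10 and -0.62 ± 0.10, with a difference of 0.66 ± 0.14 (adjusted p = 2.1e-04), and here too the first slope did not pass (adjusted p = 0.76). Il10ra had 0.32 ± 0.11 and -0.38 ± 0.10, Il10rb 0.30 ± 0.07 and -0.16 ± 0.07, and Tnfaip8 0.18 ± 0.05 and -0.22 ± 0.06. In the 48 mice with epididymis transcripts the slopes of Tnfaip2, -0.86 ± 0.22, and Tnf, -0.77 ± 0.17, passed the adjusted p. Those of the other 4, from -0.34 ± 0.18 for Il10ra to -0.13 ± 0.13 for Tnfaip8, did not.

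The macrophage score moved the same way. Its r with Lep was 0.46 in the Eif2s3y-low, -0.28 in the Eif2s3y-high and -0.31 in the epididymis mice. Of the 17 genes called higher with it, 8 were among the 26, namely Il10, Il10ra, Il10rb, Il6, Tnf, Tnfaip2, Tnfaip3 and Tnfaip8. Whether the slopes of these genes differ beyond that of the macrophage score was not tested. The overlap of the calls over all probes was not counted either. The receptors Il17rb (-0.80 ± 0.12 and -0.08 ± 0.11) and Il17rc (-0.19 ± 0.06 and 0.17 ± 0.07) differed in the other direction. Il1b, with a difference of 0.20 ± 0.09 (adjusted p = 0.084), and Tnfrsf1a, with -0.03 ± 0.08 (adjusted p = 0.83), did not pass.

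**Figure D5:**
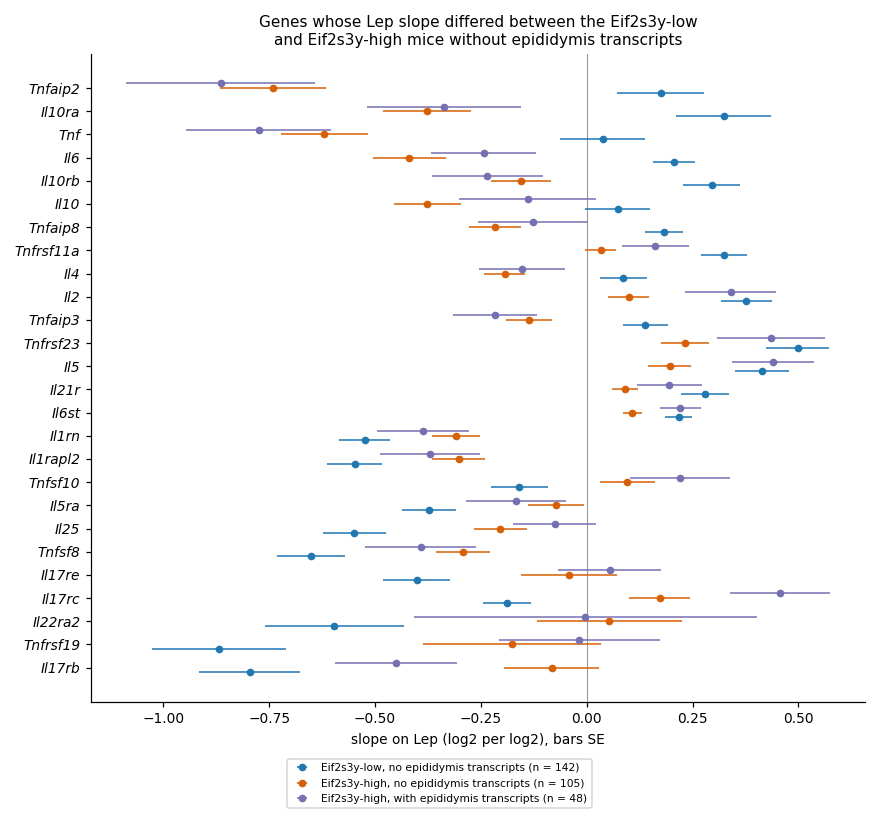
Slope on Lep (log2 per log2, bars SE) in 3 sets of mice for the 26 genes whose slope differed between the Eif2s3y-low and Eif2s3y-high mice. For Tnfaip2, Il10ra, Il6 and Il10rb the Eif2s3y-low mice lie right of 0 and both other sets left of it.

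The genes around these signals were read from the same fits, from lists of related genes. Of all probes, 8.77% were called higher and 6.31% lower with the macrophage score. For the T cell score 3.08% were called higher, and for Lep 7.34%. Of 23 measured adaptors and NF-kB genes, 9 were called higher with the macrophage score and 0 lower, with Ikbke, a kinase of the NF-kB and interferon paths, at r = 0.81 and Rel at 0.73. The median r of the list was 0.23 against -0.02 over all probes. With the T cell score 9 were also called higher, with Traf1, an adaptor of TNF receptors, at 0.84. Of 13 JAK, STAT and SOCS genes, 4 were called higher and 1 lower with the macrophage score, Ptpn6, the phosphatase SHP-1, at 0.86 and Stat5a at -0.47. Of 11 TNF family genes under other names 5 were called with the T cell score, Ltb (lymphotoxin beta) at 0.86 and Lta at 0.80, beside 1 with the macrophage score, Cd40 at 0.41. Of 13 related cytokines and receptors, Osmr, the oncostatin M receptor that pairs with Il6st, had an r of 0.61 with Lep and Lifr 0.46, both called, and Ebi3, a chain of interleukins 27 and 35, 0.85 with the macrophage score.

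The remaining 46 of the 98 genes were called with none of the 4 regressors. They include Il18, Tnfrsf1a, Tnfrsf1b and Tnfrsf12a, and Th2 or Th17 cytokines such as Il13, Il17a and Il17f. Across all 4753 pairs of the 98 genes the median r was 0.03, with 556 pairs at 0.4 or above and 204 at -0.4 or below. Among the 98, 4 genes had several probes, and these did not always agree: r was 0.71 for Tnfrsf10b and -0.35 for Il1rapl1, and the 3 Il17rd probes had 0.61, 0.02 and -0.48 with each other. For such a gene the most variable probe was used.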

How the data were processed

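Adipose RNA of 295 F2 mice was measured on 295 two-colour arrays, 1 per mouse, against a common pool. The authors deposited 23387 probes as log10 ratios, whose scale, centring and direction are unstated and were read from the values, which run from -2 to 2 with 527 at a limit. For background correction and normalization, methods were not given in the sources used here. For 1 sample the title and source name carry different mouse numbers, and its title was followed.

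Values were multiplied by 3.32 to log2 ratios. Probes measured on at least 90% of arrays were kept (22894), and 7762 gaps were filled with the probe's mean. Symbols from the platform annotation were updated through Entrez identifiers to RefSeq, GRCm38.p6, where 97 of the 98 genes matched. A gene is its most variable probe with 1 symbol. Regressions were made with limma 3.58.1 in R 4.3.3 over all probes, with Benjamini-Hochberg adjustment, and pairs were tested by permutation in Python 3.11.15 with SciPy 1.17.1, two-sided. Array medians, gap filling, probe choice, call rules, sets of mice, the first principal component and blocks of mouse number were varied, and single mice or the olfactory receptor score were left out or added after the data were seen. On simulated data the regression recovered planted relations. Arrays give no read depth, and their number limits the precision.

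The genes, lists and tests were chosen with earlier results of these data known. Genes named in the text are the 12 with the largest SD, the 8 highest and 8 lowest r among those called in each regression, the 6 largest partial r per score, the 6 smallest p for the Lep slope, the 8 closest pairs of each kind, and Il1b, Il1rn, Il6, Tnf, Tnfrsf1a, Tnfrsf1b, Il6ra, Il10, Il15 and Il18. Others are named as the rest of a short count.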

Additional observations from a re-analysis of the deposited data

Results flagged for a closer look

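The slope on Lep differed between the 142 Eif2s3y-low and the 105 Eif2s3y-high mice, by limma's test of the difference itself, for the 6 genes named by the smallest p. The difference in slope, log2 per log2, was 0.63 ± 0.09 (SE) for Il6, 0.92 ± 0.16 for Tnfaip2, 0.40 ± 0.08 for Tnfaip8, 0.66 ± 0.14 for Tnf, 0.45 ± 0.10 for Il10rb and 0.70 ± 0.16 for Il10ra. The macrophage score had an r of 0.46 with Lep in the first set and -0.28 in the second, and the adipocyte score 0.08 and 0.52. The part of either score in these differences was not tested.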

How the results depend on the processing

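The count of genes called higher with the macrophage score, 17, was 40 by the adjusted p alone (26.4% of all probes). It was 11 at an absolute r of at least 0.5 (6.09%), and 27 in the 48 mice with epididymis transcripts alone, where the share over all probes was 12.2% in place of 8.77%. The 3 lower (6.31% of all probes) became 6 without the epididymis arrays (9.2%) and 5 in the Eif2s3y-low mice (7.06%). They became 13 by the adjusted p alone (29.0%) and 1 at an r of 0.5 (2.55%). The 26 called with the T cell score became 58 by the adjusted p alone, where 26.0% of all probes were higher and 20.7% lower. The 21 with the B cell score became 70, where 27.6% and 26.3% of all probes were. With Lep, the 8 higher (7.34% of all probes) became 4 with array medians removed (3.81%), 3 without the epididymis arrays and 1 in the Eif2s3y-high mice. They became 4 with the set as a block, 2 with the first principal component and 1 with the olfactory receptor score as a covariate (2.80%). By the adjusted p alone there were 37 (38.7%), and at an r of 0.5 there was 1. The 6 lower (3.83% of all probes) became 12 in the Eif2s3y-high mice and 2 with the olfactory receptor score (1.42%). They became 28 by the adjusted p alone (28.3%) and 2 at an r of 0.5. Where no share is given, the count was not set beside that of all probes.

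In the joint fit, calls in either direction with the macrophage score, 30, became 13 in the Eif2s3y-high mice, 18 with the set as a block, 65 by the adjusted p alone and 12 at a partial r of 0.5. Those with the T cell score, 16, became 34 in the Eif2s3y-low and 5 in the Eif2s3y-high mice, and 49 and 2 under those call rules. With the B cell score 7 became 33 in the Eif2s3y-low mice, 12 in the Eif2s3y-high mice, 3 with the set as a block, 56 by the adjusted p and 0 at a partial r of 0.5. With the adipocyte score 34 became 22 with array medians removed, 12 without the epididymis arrays and in the Eif2s3y-low mice, 17 in the Eif2s3y-high mice, 6 with the set as a block or with the first principal component, 21 with the olfactory receptor score, 73 by the adjusted p and 8 at 0.5. The 26 Lep slope differences became 17 with the olfactory receptor score. The 53 genes spanning 2-fold became 6 read as natural log (5.55% of all probes) and 1 read as log2 (2.27%). Of the pairs, 34 ligand and receptor pairs became 21 in the Eif2s3y-high mice, and 25 neighbour pairs became 13 in the Eif2s3y-high mice, 16 as residuals from the olfactory receptor score, and 14 in the middle and 14 in the upper of 3 parts by mouse number. The cause of these moves was not tested, and the sets hold fewer mice.

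For the single genes named by the highest or lowest r, 502 of the recomputed r values kept their call and 71 fell below it. The sign of 1 more turned, Il13ra2 with the macrophage score at -0.25 in the mice with epididymis transcripts. Of the pairs 168 kept their call and 8 lost it, and all 24 slope differences kept theirs. Spearman's rho departed from r by up to 0.24 for the named genes. No paired analysis was possible because all mice form 1 group.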
